A study of Mus musculus with 16 samples.

Results

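The chemokine ligand genes followed here were Ccl1, Ccl3, Ccl4, Ccl5, Xcl1, Cxcl2 and Cxcl10. They were taken by gene symbol from the table of bead intensities, in which each had 1 entry, so they made up 7 of 18138 genes. D10 cells, a fast-growing variant of a mouse Th2 clone, were stimulated through CD3 and CD28 for 0, 2, 6 or 12 h, either without inhibitor (control) or after 1 h in 10 µM Akti1/2, an inhibitor of the Akt1 and Akt2 kinases. Each of the 8 groups had 2 arrays, and each of 2 chips carried 1 array of every group. All groups were cells of this cloned line grown with interleukin-2. The study asked which stimulation-induced transcripts depend on Akt. Control cells are called untreated in the methods and solvent-treated in the results of the study. Nothing in the sources states that the arrays of a group came from separate cultures, so the p-values measure only the spread between these arrays, which may be technical.

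Chemokines are small secreted proteins that bind G protein-coupled receptors on other cells and direct their movement. T cells switch on several chemokine genes after antigen receptor signalling, through calcium-dependent NFAT factors and, with CD28 engagement, through NF-κB and AP-1. Ccl3, Ccl4 and Ccl5 are inflammatory chemokines that draw monocytes and effector T cells, and Ccl1 is the ligand of Ccr8, a receptor typical of Th2 cells. Xcl1 (lymphotactin) binds Xcr1 on dendritic cells, Cxcl2 binds Cxcr2 and draws neutrophils, and Cxcl10 binds Cxcr3 and is best known as an interferon-induced gene.

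The sources of signal were checked against markers. Of 10 T cell marker genes on the array, 9 were above background on all 16 arrays, Cd3e, Cd3g and Lck among them, and Cd4 was above background on 13. Of 8 Th2 markers, Gata3, Il4, Il5, Il13, Il1rl1 and Ccr8 were above background on all 16 arrays, while Maf and Ccr4 were above background on none. Cells that make these chemokines in tissues include macrophages, dendritic cells, CD8 T cells and NK cells. Of 10 macrophage markers, Cd68 was above background, on 15 arrays, and the defining markers Cd14, Csf1r, Emr1 and Itgam were on none. The summed intensity of the macrophage markers was 1303.1 to 1429.6 on the control arrays and 1137.1 to 1503 on the Akti1/2 arrays. None of 5 dendritic cell markers was above background on any array, and of 7 CD8 T and NK cell markers only Prf1 was, with Cd8a on none. Some markers moved with the inhibitor. Of the T cell markers, 2, 3 and 3 were called lower and 1 was called higher in Akti1/2-treated than in control cells at 2, 6 and 12 h. Cd3e was lower at all 3 times (log2 differences of -0.87, -0.48 and -0.61), Lck (-0.65) and Zap70 (-0.62) were lower at 12 h, and Cd28 was the one called higher (0.96, 1.29 and 1.41). Of 4 granulocyte markers, Mpo was above background on all 16 arrays and was called lower at the same times (-0.56, -0.38 and -0.33), and S100a8, S100a9 and Csf3r were on none. The part of these markers in the differences reported below was not tested. Fewer responding cells and less RNA per cell cannot be told apart in such pooled RNA.

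The stretch of 250 bases upstream of the transcription start is shown for 4 of the genes, all of which were induced in the arrays described further on. The NF-κB motif was searched as GGGRNWYYCC (R is A or G, W is A or T, Y is C or T, N is any base). Cxcl2 and Cxcl10 carry matches to this pattern, and Ccl1 and Ccl3 carry none. Other NF-κB patterns were not searched. Sequences are from RefSeq (GRCm38.p6), 5′ to 3′ on the strand of the gene, and capitals mark matches to that NF-κB pattern and to the AP-1 motif TGANTCA.
Ccl1: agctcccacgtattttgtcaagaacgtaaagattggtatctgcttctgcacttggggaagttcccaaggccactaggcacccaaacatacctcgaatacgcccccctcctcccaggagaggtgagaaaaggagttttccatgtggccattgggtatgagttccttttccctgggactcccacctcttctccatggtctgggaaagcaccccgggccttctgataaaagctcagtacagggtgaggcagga
Ccl3: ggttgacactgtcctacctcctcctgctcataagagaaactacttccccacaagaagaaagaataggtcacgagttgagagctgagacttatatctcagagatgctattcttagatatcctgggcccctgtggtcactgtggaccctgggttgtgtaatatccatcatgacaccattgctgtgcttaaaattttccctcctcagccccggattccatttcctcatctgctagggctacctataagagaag
Cxcl2: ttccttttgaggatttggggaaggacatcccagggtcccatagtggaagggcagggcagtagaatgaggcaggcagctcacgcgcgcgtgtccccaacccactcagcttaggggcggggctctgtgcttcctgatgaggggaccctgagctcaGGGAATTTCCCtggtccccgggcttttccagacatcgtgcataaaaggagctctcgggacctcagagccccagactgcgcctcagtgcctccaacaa
Cxcl10: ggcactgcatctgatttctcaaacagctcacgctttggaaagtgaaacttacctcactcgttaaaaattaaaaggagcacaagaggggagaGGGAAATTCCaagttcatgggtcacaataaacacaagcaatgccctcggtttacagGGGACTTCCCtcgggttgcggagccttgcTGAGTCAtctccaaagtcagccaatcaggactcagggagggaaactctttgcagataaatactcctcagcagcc
The windows lie at chr11:82179813-82180062 (minus strand) for Ccl1, chr11:83649379-83649628 (minus) for Ccl3, chr5:90903649-90903898 (plus) for Cxcl2 and chr5:92348890-92349139 (minus) for Cxcl10. Of the 7 genes, 5 had a window in the table, and Ccl4 and Ccl5 did not. Cxcl2 had 2 overlapping NF-κB matches, which ended 88 and 87 bases before the start and were read together in capitals. Cxcl10 had NF-κB matches at 159 to 150 and at 103 to 94 bases before the start, and an AP-1 match, TGAGTCA, at 74 to 68. Cxcl10 also had a match to the core of the interferon-stimulated response element at 213 to 204 bases before the start. Neither this NF-κB pattern nor the AP-1 motif was found in the windows of Ccl1, Ccl3 and Xcl1. In the Ccl1 window, GGGAAGTTCC differs from the NF-κB pattern only at the W. The NFAT core GGAAA, which overlaps the NF-κB motif, occurred 3 times for Ccl1, 2 times for Ccl3, 1 time for Xcl1, 2 times for Cxcl2 and 3 times for Cxcl10. On either strand, NF-κB matches were present in 3.9% of 32851 mouse windows of this length, TGANTCA in 6.75%, GGAAA in 55.57% and the interferon-stimulated core in 2.98%. These matches are letters in a window and were not tested as binding sites.

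A detection p, the share of negative controls at least as bright as the gene, was worked out for every array, and values under 0.01 counted as above background. Ccl1, Ccl3, Ccl4 and Ccl5 were above background on all 16 arrays. Cxcl2 was above background on all arrays but the 4 at 0 h, and Cxcl10 on all but 3 of those 4. Xcl1 was above background only on the 4 arrays of control cells at 6 and 12 h. All 7 genes were among the 7395 tested, having reached at least 2 arrays. Xcl1 did so only through the groups in which it was high, and Cxcl2 only through stimulated groups. Cxcl10 did so through stimulated groups too, but for 1 Akti1/2 array at 0 h. Values below are log2 intensities after background correction and quantile normalization, or differences between group means of these, with the SE of the fit and 2 arrays per group. For a gene not above background in a group, a fold is given only as a bound, against the dimmest signal above background or the gene's own value if higher. These bounds hold on the background-corrected scale, and log2 changes without that correction, which were smaller, are given beside them. No level is compared between genes, since each has its own probe.

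All 7 genes had higher signal after stimulation in control cells. They were chosen with earlier results of these data known, so the counts below describe them and do not test chemokine genes as a set. Of the other ligand genes on the array only Ccl17 and Ccl25 were tested, and neither was called higher than at 0 h. At 2 h, 6 of the 7 were called higher than at 0 h (limma, Benjamini-Hochberg adjusted p under 0.05), beside 4.42% of all tested genes, and Xcl1 was not. At 6 h and at 12 h all 7 were called higher, where the share of all tested genes was 12.1% and 12.7%. Xcl1 is counted there although it entered the test only through those groups. Cxcl2 and, but for 1 Akti1/2 array at 0 h, Cxcl10 entered the test through stimulated groups. Their calls against 0 h, with and without Akti1/2, are therefore partly set by the filter. The median log2 change of the 7 was 2.54, 3.90 and 3.31 at 2, 6 and 12 h, and that of all tested genes was -0.02, -0.02 and -0.01. With genes not above background set at their bound, or left out where none could be given, the median of the 7 was 2.20, 3.33 and 2.33. With Akti1/2, 5, 7 and 6 of the genes were called higher at 2, 6 and 12 h than in Akti1/2-treated cells at 0 h, beside 17.8%, 15.4% and 21.1% of all tested genes, and the medians were 1.85, 2.90 and 3.51, or 1.41, 3.15 and 3.01 by the bounds. None of the 7 was called between Akti1/2-treated and control cells at 0 h, where 0.0541% of tested genes were called in either direction. Cxcl10 alone of the 7 had an unadjusted limma p under 0.05 there.

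**Figure D1:**
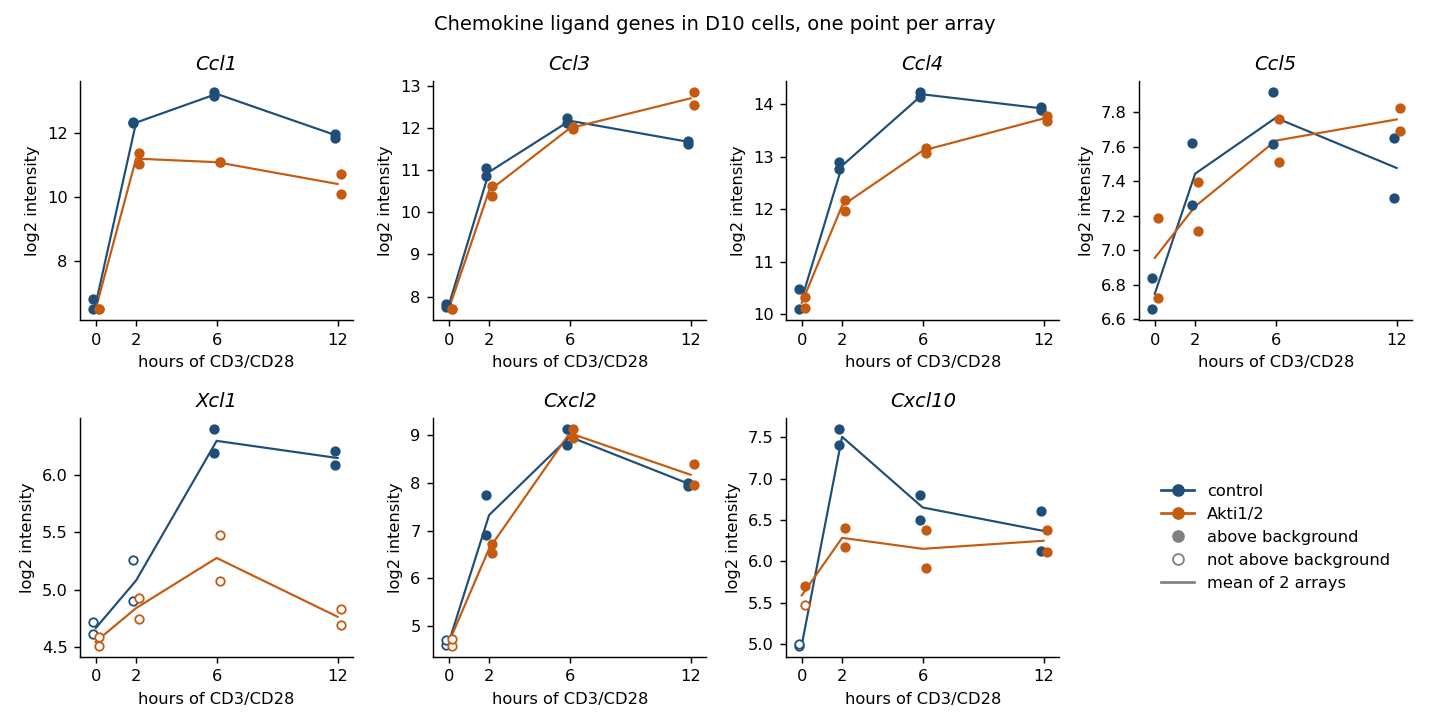
Log2 intensity of each gene on every array against hours of CD3/CD28 stimulation, with control cells in blue and Akti1/2-treated cells in orange. Lines join the means of 2 arrays, and open points are arrays on which the gene was not above background. The curves for Ccl1 separate from 2 h on, those for Ccl3 cross between 6 and 12 h, and those for Ccl4 lie 0.19 apart at 12 h.

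Akti1/2-treated cells had lower signal than control cells for 5 of the 7 genes at 2 h, namely Ccl1, Ccl3, Ccl4, Cxcl2 and Cxcl10 (14.9% of tested genes were called lower). At 6 h the genes called lower were 3, Ccl1, Ccl4 and Xcl1 (18.7% of tested genes). At 12 h Ccl1 and Xcl1 were called lower (24.8% of tested genes) and Ccl3 was called higher (24.2%). Xcl1 is counted at 6 and 12 h although it entered the test only through control cells at those times. Its calls there are therefore partly set by the filter. The median difference of the 7 was -0.70 at 2 h, -0.50 at 6 h and -0.12 at 12 h, against -0.01, -0.01 and -0.02 over all tested genes. By the bounds it was -0.73, -0.50 and -0.12. The genes called were not the same at the 3 times, and each gene is described in turn.

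Ccl1, the Ccr8 ligand, showed the largest deficit among the 7 genes in Akti1/2-treated cells at 6 h. In control cells its log2 intensity was 6.52 and 6.82 at 0 h, 12.31 and 12.35 at 2 h, 13.29 and 13.16 at 6 h, with 11.86 and 11.97 by 12 h. In Akti1/2-treated cells it was 6.51 and 6.52 at 0 h, 11.03 and 11.38 at 2 h, 11.09 and 11.10 at 6 h, with 10.12 and 10.72 by 12 h. At 0 h the groups overlapped, and from 2 h on every Akti1/2 array lay below every control array of any stimulated time. Ccl1 was 50.5-fold above 0 h at 2 h in control cells and 25.8-fold with Akti1/2, and 94.1-fold and 23.9-fold at 6 h, all called. The log2 changes in that order were 5.66, 4.69, 6.56 and 4.58. Among the alternatives, which include fits without background correction, the smallest were 4.61, 3.49, 5.49 and 3.47. The difference from control at 2, 6 and 12 h was -1.12 ± 0.18, -2.13 ± 0.18 and -1.50 ± 0.18, with limma adjusted p (Benjamini-Hochberg) of 0.000959, 3.91e-06 and 2.54e-05. These are 2.18-fold, 4.38-fold and 2.83-fold lower levels. Control cells continued to rise between 2 and 6 h, by 0.90 ± 0.18 (limma adjusted p = 0.00556), whereas the change with Akti1/2 over these hours was -0.11 ± 0.18 (limma adjusted p = 0.677), with a 95% interval of -0.50 to 0.28. From 6 to 12 h Ccl1 fell in both, by 1.31 in control and by 0.68 with Akti1/2. The latter call was lost without Akti1/2 replicate 1 at 12 h, where the change was -0.38, and without either Akti1/2 array at 6 h (-0.69 and -0.67). Within each chip the Akti1/2 difference had the same sign, with -2.20 and -2.06 at 6 h, and with -1.86 and -1.14 at the last time.

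Ccl3 (MIP-1α) was lower with Akti1/2 at 2 h and higher at 12 h. Its log2 intensity in control cells was 7.76 and 7.83 at 0 h, 11.04 and 10.87 at 2 h, 12.22 and 12.11 at 6 h, with 11.69 and 11.63 by 12 h. With Akti1/2 it was 7.71 and 7.70, 10.39 and 10.62, 12.01 and 11.97, and 12.55 and 12.85 at the same times. No 2 neighbouring groups overlapped, and the highest group was Akti1/2 at 12 h, above control at 6 h. Akti1/2-treated cells were lower by 0.45 at 2 h (a difference of -0.45 ± 0.12, limma adjusted p = 0.0194), a call that was lost in 3 of the 25 alternative fits, among them those without control replicate 1 at 2 h (-0.36) and without Akti1/2 replicate 1 at 2 h (-0.33). At 6 h the difference was -0.18 ± 0.12 (limma adjusted p = 0.287, interval -0.45 to 0.09). At 12 h Ccl3 was 2.06-fold higher with Akti1/2 (1.04 ± 0.12, limma adjusted p = 2.67e-05), by 0.92 on chip 1 and 1.16 on chip 2. Between 6 and 12 h it fell by 0.51 in control cells (SE 0.12, limma adjusted p = 0.0178) and rose by 0.71 with Akti1/2 (SE 0.12, limma adjusted p = 0.00234). The fall in control cells lost its call without any 1 of the 4 control arrays at 6 and 12 h (-0.56 to -0.45). The difference of these changes was 1.22 ± 0.18 (limma adjusted p = 0.00304). The macrophage marker Cd68 was also higher with Akti1/2, by 0.75 at 6 h and by 1.42 at 12 h, both called, while the other 9 macrophage markers were above background on no array. Its part in the Ccl3 difference was not tested.

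Ccl4 (MIP-1β), the neighbour of Ccl3 on chromosome 11, was called lower with Akti1/2 at 2 and 6 h but not at 12 h. Control arrays gave 10.10 and 10.49 at 0 h, 12.89 and 12.76 at 2 h, 14.14 and 14.23 at 6 h, with 13.94 and 13.89 by 12 h. Akti1/2 arrays gave 10.11 and 10.32, 11.96 and 12.18, 13.07 and 13.16, and 13.68 and 13.78. The groups overlapped at 0 h only. The difference was -0.76 ± 0.14 at 2 h (limma adjusted p = 0.0021) and -1.07 ± 0.14 at 6 h (limma adjusted p = 9.94e-05), which is a 2.10-fold lower level at 6 h, with -1.07 on each chip. At 12 h it was -0.19 ± 0.14 (limma adjusted p = 0.291, interval -0.49 to 0.11). With Akti1/2 the gene rose by 0.61 ± 0.14 from 6 to 12 h (limma adjusted p = 0.0107), while the control change was -0.27 ± 0.14 (limma adjusted p = 0.234). The difference of these changes, 0.88 ± 0.20, was called (limma adjusted p = 0.0242), and the call was lost without any 1 of the 4 control arrays at 6 and 12 h or of the 2 Akti1/2 arrays at 12 h (0.83 to 0.94, limma adjusted p up to 0.0813). The rise with Akti1/2 itself lost its call without Akti1/2 replicate 2 at 12 h (0.56).

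Cxcl10 was highest at 2 h in control cells, and with Akti1/2 its stimulated arrays stayed between 5.93 and 6.40. Its log2 intensity in control cells was 4.98 and 5.01 at 0 h, 7.60 and 7.41 at 2 h, 6.81 and 6.50 at 6 h, with 6.12 and 6.61 by 12 h. With Akti1/2 it was 5.70 and 5.48, 6.17 and 6.40, 6.38 and 5.93, and 6.12 and 6.38. The control arrays at 2 h stood above all others, and from 6 h on the groups with and without Akti1/2 were neighbours, overlapping through the 12 h control arrays. In control cells Cxcl10 at 2 h was at least 3.65-fold above 0 h, where neither array was above background. Without background correction this change was 1.04 (quantile normalization) or 1.02 (mean scaling) on the log2 scale. It then fell by 0.85 to 6 h (SE 0.20, limma adjusted p = 0.0118), a call lost without control replicate 1 at 2 h (-0.75) and without control replicate 2 at 6 h (-0.70). At 2 h the Akti1/2-treated cells were 2.33-fold lower (-1.22 ± 0.20, limma adjusted p = 0.000986), by 1.43 on chip 1 and 1.01 on chip 2. Across the alternatives, which include fits without background correction, this difference ranged from -1.33 to -0.52. The differences at 6 h (-0.50 ± 0.20, limma adjusted p = 0.0619) and 12 h (-0.12 ± 0.20, limma adjusted p = 0.652) were not called, although the 6 h difference was -0.73 and called without Akti1/2 replicate 1 at 6 h, and was also called without either control array at 12 h. No fold between treatments is given at 0 h, where 1 of the 2 Akti1/2 arrays and neither control array was above background, and no difference was called. Within Akti1/2-treated cells Cxcl10 changed by 0.70, 0.56 and 0.66 (each ± 0.20) at 2, 6 and 12 h, with limma adjusted p of 0.0146, 0.0423 and 0.0153. The call at 6 h was lost in 12 of 24 alternatives, that at 12 h in 4 of 24 (limma adjusted p up to 0.112), and that at 2 h without replicate 2 at 0 or 2 h (0.58 in both). The losses at 12 h were without background correction (0.23 with quantile normalization and 0.25 with mean scaling) and without Akti1/2 replicate 2 at 0 h (0.55) or at 12 h (0.53).

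Xcl1 rose above background in control cells only. Its log2 intensity there was 4.72 and 4.61 at 0 h, 5.26 and 4.90 at 2 h, 6.19 and 6.40 at 6 h, with 6.08 and 6.21 by 12 h. With Akti1/2 it was 4.51 and 4.59, 4.93 and 4.75, 5.07 and 5.48, and 4.84 and 4.69, on no array above background. The control arrays at 6 and 12 h overlapped each other and stood clear of all the remaining arrays. On the background-corrected scale, Xcl1 in control cells was at least 1.58-fold above 0 h by 6 h and remained at least 1.42-fold above it at 12 h. Across the alternatives, which include fits without that correction, the smallest log2 changes were 0.52 at 6 h and 0.48 at 12 h. With Akti1/2 it was at least 1.63-fold lower than control at 6 h and at least 1.47-fold lower at 12 h. Without background correction these Akti1/2 differences were -0.34 and -0.44 (quantile normalization) or -0.33 and -0.43 (mean scaling) on the log2 scale. All of these were called, but no p is given, since Xcl1 passed the filter only through the 2 groups in which it was high. On chips 1 and 2 the fitted difference at 12 h was -1.37 and -1.39. At 2 h neither treatment was above background, and no fold is given. The same holds for the change with Akti1/2 from 0 to 6 h, which was called between values at background.

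Cxcl2 (MIP-2) rose with and without Akti1/2, and its arrays with and without the inhibitor overlapped at 6 and 12 h. Control arrays gave 4.61 and 4.70 at 0 h, 7.74 and 6.91 at 2 h, 8.81 and 9.13 at 6 h, with 8.00 and 7.93 by 12 h. Akti1/2 arrays gave 4.58 and 4.72, 6.52 and 6.72, 8.95 and 9.14, and 7.95 and 8.39, so that the treatments overlapped at 0, 6 and 12 h. Against 0 h, Cxcl2 in control cells was at least 3.22-fold higher at 2 h, 10.1-fold at 6 h and 5.02-fold at 12 h. The same bounds with Akti1/2 were 1.96-fold, 10.5-fold and 5.73-fold. Without background correction, by mean scaling, the changes were 1.08, 2.21 and 1.46 on the log2 scale in control cells and 0.75, 2.32 and 1.66 with Akti1/2. The difference between treatments was 0.08 ± 0.23 at 6 h (interval -0.42 to 0.57) and 0.20 ± 0.23 at 12 h (interval -0.29 to 0.70), with limma adjusted p of 0.826 and 0.492. At 2 h it was -0.70 ± 0.23 (limma adjusted p = 0.0377), but it came mostly from chip 1 (-1.22, against -0.19 on chip 2). Without control replicate 1 at 2 h the difference was -0.29 and the call was lost, as it was without either Akti1/2 array at 2 h (-0.60 and -0.80). Cxcl2 fell from 6 to 12 h by 1.00 in control cells and by 0.87 with Akti1/2, and both falls were called. The control fall lost its call without control replicate 2 at 6 h (-0.84) or without either control array at 12 h (-1.04 and -0.97), and the fall with Akti1/2 without Akti1/2 replicate 2 at 6 h (-0.78) or replicate 1 at 12 h (-0.65).

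Ccl5 (RANTES), in T cells mostly a late gene of effector cells, had the narrowest log2 range of the 7 genes after background correction. Its log2 intensity spanned 6.66 to 7.92 over the 16 arrays. Every group overlapped the next in order of level, from control at 6 h (7.77) down to control at 0 h (6.75). In control cells it was 0.70 ± 0.19, 1.02 ± 0.19 and 0.73 ± 0.19 above 0 h at 2, 6 and 12 h (limma adjusted p = 0.0404, 0.00215 and 0.0139), and the call at 2 h was lost in 10 of 25 alternatives, including those without either control array at 0 h (0.79 and 0.61) or without control replicate 2 at 2 h (0.52). The call at 12 h was lost without control replicate 2 at 0 h (0.64) or at 12 h (0.55). With Akti1/2 the change was 0.30 ± 0.19 at 2 h (limma adjusted p = 0.243), 0.68 ± 0.19 at 6 h (limma adjusted p = 0.0172) and 0.80 ± 0.19 at 12 h (limma adjusted p = 0.00509). Without Akti1/2 replicate 2 at 0 h these changes at 6 and 12 h were 0.45 and 0.57 and neither was called, and without Akti1/2 replicate 2 at 6 h the change at 6 h was 0.56 and not called. No difference between treatments was called at any time. The 95% intervals of the differences reached -0.61 at 2 h, -0.55 at 6 h and 0.70 at 12 h.

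**Figure D2:**
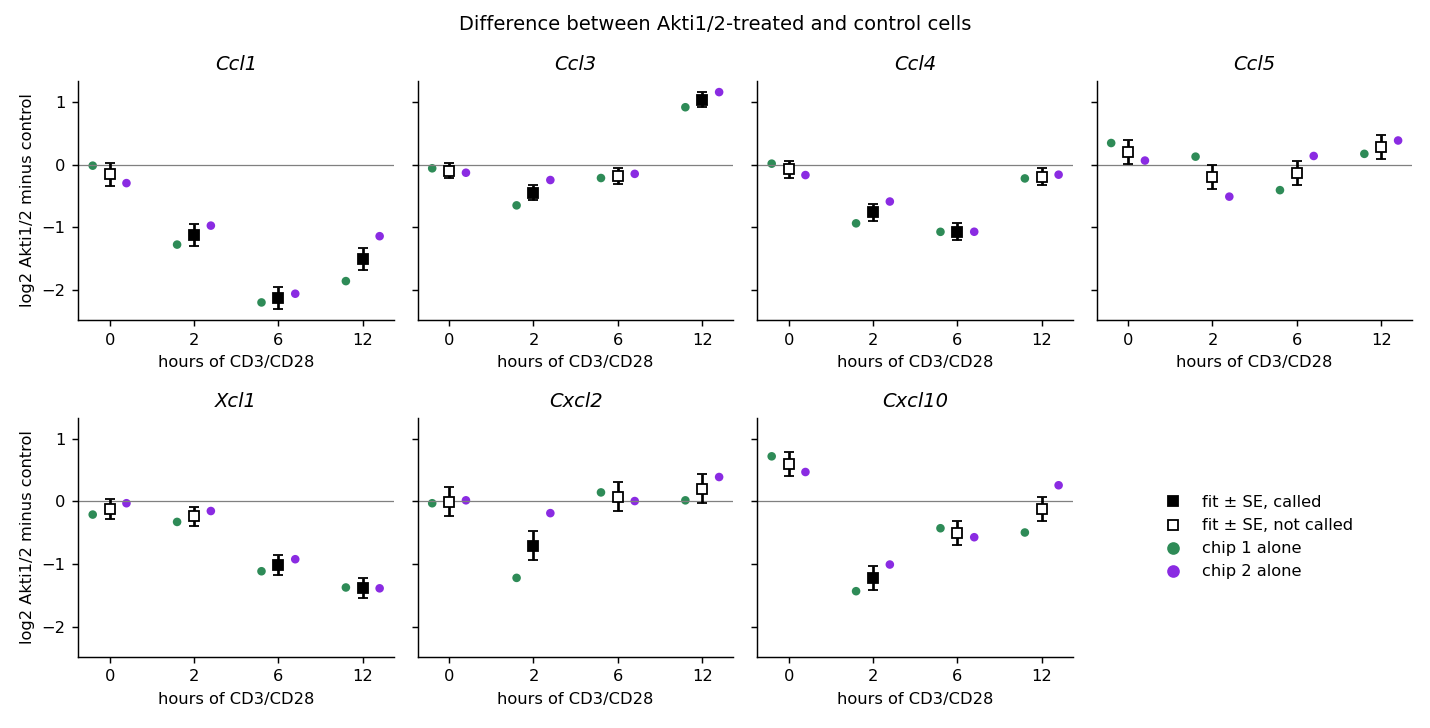
Log2 difference of Akti1/2-treated minus control cells at each time for each gene. Squares are the fit over both chips with its SE (filled where called), and the coloured points are the difference on each chip alone. Ccl1 lies below 0 at 2, 6 and 12 h on both chips, Ccl3 lies above 0 at 12 h on both, and for Cxcl2 at 2 h the chips gave -1.22 and -0.19.

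The difference at a stimulated time was also set against that at 0 h, as the change since 0 h in Akti1/2-treated cells less that in control cells. By this interaction, 2 of the 7 genes responded less with Akti1/2 at 2 h, Ccl1 and Cxcl10, beside 4.16% of tested genes. At 6 h there were 4, Ccl1, Ccl4, Xcl1 and Cxcl10 (9.24% of tested genes). At 12 h there were 2 that responded less, Ccl1 and Xcl1 (16.2%), and 1 that responded more, Ccl3 (16.3%). Xcl1 is counted at 6 and 12 h although it entered the test only through control cells at those times, so no p is given for it. Since the 0 h values of Xcl1 and Cxcl10 were at or near background, their interactions are fitted values that include levels not above background. That of Cxcl10 at 2 h was -1.82 ± 0.28 (limma adjusted p = 0.00391), and without background correction -0.80 (quantile normalization) or -0.71 (mean scaling). For Ccl1 at 2 h it was -0.97 ± 0.25 (limma adjusted p = 0.0342), and this call was lost in 7 of 25 alternatives. These included the fits without control replicate 1 at 0 h (-0.82, limma adjusted p = 0.127), either Akti1/2 array at 0 h, either control array at 2 h or Akti1/2 replicate 1 at 2 h (-0.80). For Ccl4 at 2 h it was -0.69 ± 0.20 (limma adjusted p = 0.0502), just short of a call, and 9 alternatives called it. The interactions of Xcl1 and Cxcl10 at 6 h were -0.90 ± 0.22 and -1.10 ± 0.28. That of Xcl1 lost its call without control replicate 2 at 0 h (-0.85) or at 6 h (-0.79), and without background correction (-0.28 with quantile normalization and -0.29 with mean scaling). At 12 h the call of Xcl1 was lost by mean scaling without background correction (-0.39). The 6 h call of Cxcl10 (limma adjusted p = 0.0154) was lost by mean scaling without background correction (-0.36) and without replicate 1 of either treatment at 0 h (-1.08 and -0.98), control replicate 1 at 6 h (-0.94) or Akti1/2 replicate 2 at 6 h (-0.87).

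Changes between successive times were tested as well. Between 2 and 6 h in control cells 5 of the 7 rose further (7.4% of tested genes were called higher), Cxcl10 fell (7.18% lower) and the Ccl5 change was 0.32 ± 0.19 (limma adjusted p = 0.302). Xcl1 is among the 5 although it entered the test only through control cells at 6 and 12 h. With Akti1/2, 3 rose over these hours, Ccl3, Ccl4 and Cxcl2 (15.9%). Between 6 and 12 h, 3 fell in control cells, Ccl1, Ccl3 and Cxcl2 (6.64%). With Akti1/2 over the same hours Ccl3 and Ccl4 rose (8.91%) and Ccl1, Xcl1 and Cxcl2 fell (8.84%), although both Xcl1 values there were not above background and that call was lost in 17 of 24 alternatives. The change from 6 to 12 h was higher with Akti1/2 for 2 of the 7 genes, Ccl3 and Ccl4, and for 3% of tested genes.

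**Figure D3:**
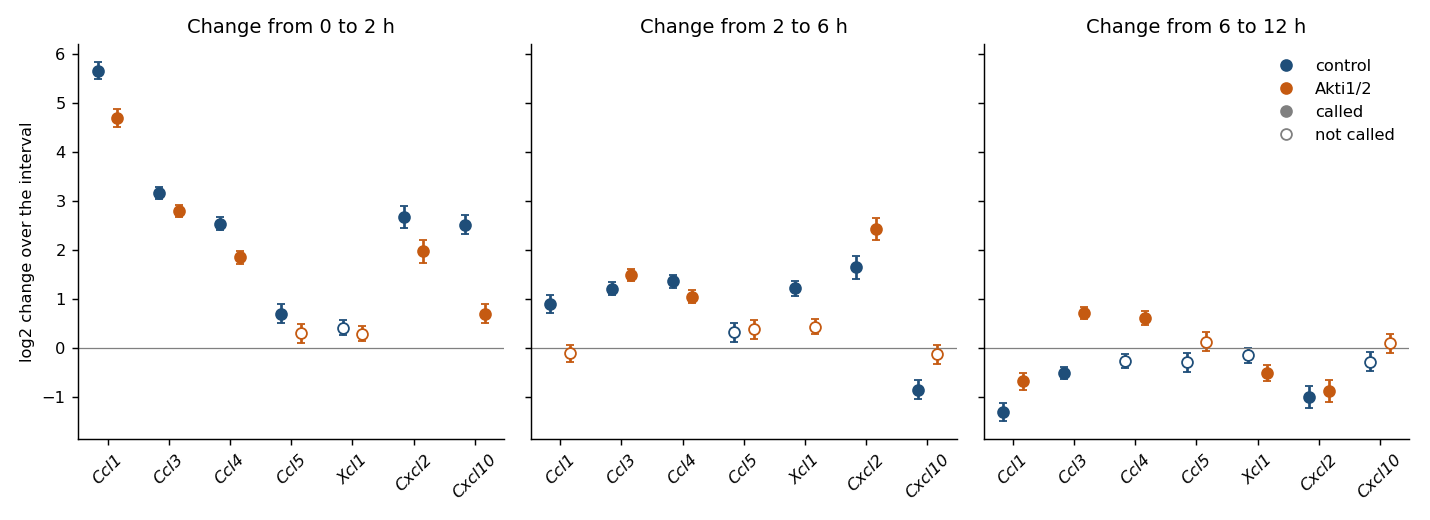
Log2 change of each gene over 0 to 2 h, 2 to 6 h and 6 to 12 h, with SE, in control (blue) and Akti1/2-treated cells (orange). Filled points were called, and changes of Xcl1, Cxcl2 and Cxcl10 that start or end at background are fitted values. Over 6 to 12 h Ccl3 changed by -0.51 in control and 0.71 with Akti1/2.

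The time courses were also set beside those of all other tested genes, by Pearson correlation over the 8 group means. These correlations are a description, since the groups share the stimulation and the arrays. The pattern of Ccl1 was most like those of Slco2b1 (0.98), Zc3h12a (0.98) and Lzic (0.98), and that of Ccl3 most like Traf1 (0.99), Jak2 (0.98) and Gadd45b (0.98). Ccl4 lay nearest to Gadd45b (0.99), Il10 (0.99) and Irf4 (0.99), and Ccl5 to Ccl3 (0.97), Uap1 (0.97) and Jak2 (0.97). The nearest genes were Il2ra (0.99), Ext1 (0.98) and Dph2 (0.98) for Xcl1, and Lilrb4 (0.98), Gbp3 (0.98) and Rcl1 (0.97) for Cxcl2. Cxcl10 had looser neighbours, Lzic (0.92), Dph3 (0.92) and Obfc2a (0.90). Among the 7 genes themselves Ccl3 and Ccl4 were close (0.97), and Ccl3 and Xcl1 less so (0.58). Xcl1 was above background only in control cells at 6 and 12 h. Its correlations therefore mostly set those groups against values at background.

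The study ranked changes by a J5 score, which divides a gene's difference in mean intensity by the mean absolute difference of all genes and chose a threshold for each time point. A threshold of 20 was applied here at all times. The score is given as a description, with no error. In control cells 3 of the 7 genes passed it at each of 2, 6 and 12 h, Ccl1, Ccl3 and Ccl4, beside 0.524%, 0.502% and 0.375% of all 18138 genes with a score as high. With Akti1/2 there were 2, 3 and 2, beside 0.513%, 0.331% and 0.458% of all genes. Ccl1 scored 93.2, 138.5 and 54.6 without the inhibitor, and its scores with Akti1/2 were 23.2, 25.1 and 12.3. For Ccl3 the control scores were 31.3, 65.4 and 43.2, and those with Akti1/2 were 12.5, 45.2 and 60.3. Ccl4 scored 106.7, 243.3 and 191.2 in control and 30.8, 89.7 and 112.3 in Akti1/2-treated cells. The divisor differs between comparisons, so scores with and without Akti1/2 are not on a shared scale. Beside the scores of 65.4 and 45.2 for Ccl3 at 6 h, the log2 changes were 4.37 and 4.28. Those of Ccl4 at 12 h were 3.62 and 3.51, and those of Ccl1 at 6 h were 6.56 and 4.58. The score follows the size of the difference in intensity, and Ccl5, Xcl1, Cxcl2 and Cxcl10 stayed under 7 in every comparison.

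The rest of the chemokine system was read from lists of other ligands, receptors and receptor signalling genes. Of 29 other chemokine ligand genes on the array, 27 were above background on no array, and Ccl17 and Ccl25 were on all 16. Ccl17, a Ccr4 ligand that Th2 cells respond to, fell in control cells by 1.23 at 6 h and by 1.84 at 12 h, and in Akti1/2-treated cells by 0.56 and by 0.84, all called. It was higher with Akti1/2 by 0.75 ± 0.17 at 6 h (limma adjusted p = 0.00362) and 1.08 ± 0.17 at 12 h (limma adjusted p = 0.00018). Its interaction at 12 h was 1.01 ± 0.23 (limma adjusted p = 0.00601). Ccl25 was called in no comparison with 0 h or between treatments.

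Of 24 receptor genes, 6 were tested and 18 were above background on no array, including Ccr1, Cxcr3, Xcr1 and Il8rb, which encode receptors of Ccl3, Cxcl10, Xcl1 and Cxcl2. Ccr8, the receptor of Ccl1, was above background on all 16 arrays with intensities of 510.9 to 851.9. Its Akti1/2 differences at 0, 2, 6 and 12 h were -0.20, 0.16, -0.06 and 0.10, each with an SE of 0.22, and none was called. With Akti1/2, 2 receptor genes were called higher at 2 h and 1 was called lower, beside 13.6% and 14.9% of all tested genes. At 6 h and at 12 h there were 4 called higher and 0 called lower, where 18.8% and 24.2% of tested genes were called higher and 18.7% and 24.8% lower. The median difference of the 6 receptor genes was 0.29, 0.91 and 1.01 at the 3 times. Cxcr4, the Cxcl12 receptor, was higher by 1.96 ± 0.26, 2.66 ± 0.26 and 2.79 ± 0.26 at 2, 6 and 12 h (limma adjusted p = 0.000313, 1.33e-05 and 3.55e-06). Cx3cr1, the fractalkine receptor, was higher by 1.24 ± 0.17 at 6 h and 1.77 ± 0.17 at 12 h, and Ccr7, which guides cells into lymph nodes, by 1.02 ± 0.17 and 1.37 ± 0.17. Ccrl2, an atypical receptor, was 0.71 lower at 2 h (-0.71 ± 0.17, limma adjusted p = 0.00862) and 0.65 ± 0.17 higher at 12 h (limma adjusted p = 0.00652). Cxcr6, above background on 6 arrays only, was called higher at 2 and 6 h.

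**Figure D4:**
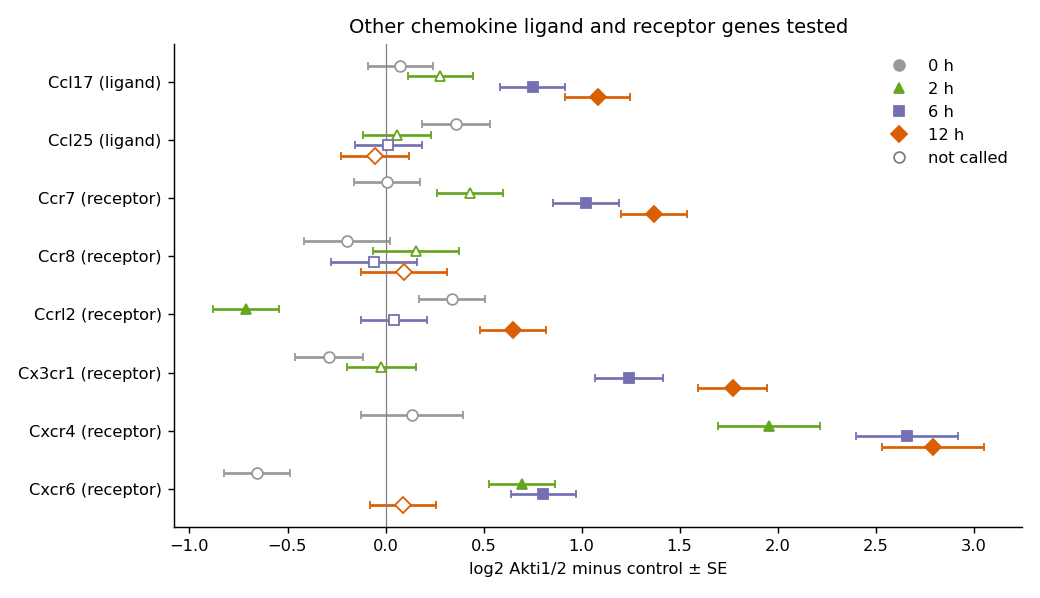
Log2 difference of Akti1/2-treated minus control cells, with SE, for the 2 other ligand genes and 6 receptor genes tested, at 0, 2, 6 and 12 h. Filled symbols were called. Cxcr4 lies at 1.96 to 2.79 from 2 h on, whereas Ccr8 lies between -0.20 and 0.16.

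Of 26 genes that act below chemokine receptors (G protein subunits, RGS proteins, arrestins and kinases), 19 were tested. At 2 h, 4 were called higher with Akti1/2 and 5 lower. The counts were 4 higher against 2 lower at 6 h, and 4 against 1 at 12 h. The shares of all tested genes are those given beside the receptor counts. Rgs1, which shortens chemokine receptor signals, was higher by 2.38 ± 0.13 already at 0 h and by 3.81 ± 0.13 at 12 h (limma adjusted p = 1.41e-06 and 1.01e-09). Rgs16, another RGS gene, was 0.80 lower at 2 h (-0.80 ± 0.23, limma adjusted p = 0.0226) and 1.11 lower at 6 h (-1.11 ± 0.23, limma adjusted p = 0.00249). Its interaction at 6 h was -1.63 ± 0.33 (limma adjusted p = 0.00458). Arrb2, an arrestin, was higher by 0.82 ± 0.14 at 2 h (limma adjusted p = 0.00148). At 12 h the G protein subunit gene Gng2 was higher by 0.68 ± 0.10 and the Rac activator gene Tiam1 by 1.03 ± 0.11 (limma adjusted p = 0.000102 and 1.18e-05).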

How the data were processed

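RNA from 16 samples was hybridized to Illumina MouseRef-8 bead arrays, 8 arrays on each of 2 chips. The authors deposited linear bead intensities, 1 value per gene and array, without normalization or background subtraction per the file headers, for 18138 genes and 832 control entries, 798 of them negative controls. The array's genome build is not given in the sources used here, so no coordinates of its genes or probes are printed, and those of the promoter windows are of RefSeq's own build, GRCm38.p6. A second control table was not used here.

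Intensities were background-corrected on the negative controls, quantile-normalized and log2-transformed with neqc (offset 16) in limma 3.58.1 under R 4.3.3. The 7395 genes above background (detection p under 0.01) on at least 2 arrays entered 1 fit of all 8 groups (lmFit, contrasts.fit, eBayes, 8 residual and 4.26 prior degrees of freedom) with no chip or replicate term. Calls were made at a Benjamini-Hochberg adjusted p under 0.05 per comparison, over all tested genes. J5 scores were computed on intensities scaled to a common 95th percentile. Median intensity per array was 119.4 to 148.6, 6288 to 6907 genes were above background, and arrays of a group correlated at 0.986 to 0.994. The Akti1/2 arrays at 2 h had the most genes above background (6907 and 6796, the others up to 6719). They also had the lowest 95th percentiles of intensity (1383.42 and 1153.83, the others 1393.01 to 1931.3). The part of this in the differences at 2 h was not tested. The number of arrays limits the precision.

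The named genes were the 7 members, up to 5 called genes per chemokine list with the smallest p, and the 3 most alike genes per member. The members and lists were chosen with earlier results of these data known. Whether replicate numbers pair the samples could not be settled here. The correlation of deviations by replicate number had a median of 0.02 and a minimum of -0.30 over 28 pairs of groups. Replicate number and chip coincide but for the 12 h control cells, whose replicates lie on opposite chips from the other groups. Alternatives were quantile normalization or mean scaling without background correction, an offset of 50, other filters (none, detection p under 0.05, all 16 arrays), replicate or chip blocks, a fit of only the groups compared, other J5 scalings, and leaving out each array. The steps were tested on simulated data. Promoter windows are from RefSeq, read with Python 3.11.15. Probe sequences were not used here, so signal shared between similar ligand genes was not checked.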

Additional observations from a re-analysis of the deposited data

Results flagged for a closer look

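In 11 comparisons the response of a chemokine gene was called different between Akti1/2-treated and control cells, and these are listed for a closer look. The calls are by the interaction test of the limma fit (Benjamini-Hochberg adjusted p under 0.05). Against 0 h at 2 h, the response with Akti1/2 was less for Ccl1 (-0.97) and Cxcl10 (-1.82). At 6 h it was less for Ccl1 (-1.98), Ccl4 (-0.998), Xcl1 (-0.90) and Cxcl10 (-1.10). At 12 h it was less for Ccl1 (-1.35) and Xcl1 (-1.26) and more for Ccl3 (1.13). The change from 6 to 12 h was greater with Akti1/2 for Ccl3 (1.22) and Ccl4 (0.88). All values are differences on the log2 scale. For Xcl1 the Akti1/2 values were not above background on any array. It entered the test only through control cells at 6 and 12 h, so its interactions are partly set by the filter. Calls lost under an alternative were those of Ccl1 at 2 h, Xcl1 and Cxcl10 at 6 h and Xcl1 at 12 h. That of Ccl4 from 6 to 12 h was lost as well.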

How the results depend on the processing

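No value changed its sign while called under any alternative. For single genes, 1031 of the comparisons under other settings kept direction and side of the threshold, 37 lost and 7 gained a call, and with an array left out 1911 kept them, 66 lost and 13 gained one. With only genes above background on all 16 arrays, 4 of the 7 genes could be tested. Of these, 4 were called in control cells at 6 h and 4 at 12 h, 3 and 4 with Akti1/2 at 2 and 6 h, 3 between treatments at 2 h, 2 in the interaction at 6 h, 3 from 2 to 6 h in control cells and 3 from 6 to 12 h with Akti1/2. A fit of only the groups compared, which has fewer arrays, called 3 between treatments at 2 h and 0 from 6 to 12 h with Akti1/2. With no filter on dim genes 1 was called in the interaction at 2 h, and with scaling to the same mean 2 in that at 6 h. The cause of these last losses was not tested.

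Leaving out 1 array gave 3 to 5 genes called between treatments at 2 h, 1 to 3 in the interaction at 2 h, 1 to 3 from 6 to 12 h in control cells, 2 to 5 with Akti1/2, and 1 to 2 in the difference of those changes. The number with a J5 score beyond 20 with Akti1/2 at 2 h was 1 without Akti1/2 replicate 1 at 2 h. Over genes above background it was 0 at 2 h and 1 at 6 h. With the replicate block, 3 genes were called in the interaction at 2 h (Ccl4 added, limma adjusted p = 0.0388), 5 in control cells at 2 h, 6 with Akti1/2 at 6 h and 4 from 6 to 12 h with Akti1/2, and the other counts were as without it. Signal over background limits Xcl1, Cxcl2 and Cxcl10, whose 0 h values were not above background on any array, or for Cxcl10 on 3 of 4, so that their changes from 0 h and interactions are fitted values.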
